A study of Mus musculus with 16 samples.

Results

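Expression of 48 cell cycle and DNA replication genes was analysed in differentiating mouse embryonic stem cells treated with hawthorn extract WS1442 or with its MeOH eluate. The members are a list of names with textbook roles, and the rule uses no measured value, though the list was chosen with earlier results of these data known. They comprise 25 genes of the G1/S transition and of DNA replication, 21 mitotic genes and 2 inhibitors of cyclin-dependent kinases. All 48 were found on the array and passed the filter on dim probes, among 29298 genes tested. Cdkn2c was well above background on 14 of the 16 arrays and each of the others on all 16.

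A dividing cell passes from G1 to S phase when D-type cyclins and cyclin E activate their kinases, the retinoblastoma family is phosphorylated and E2F factors are released. E2F factors then switch on the genes that license replication origins, unwind and copy DNA and supply nucleotides. Mitotic genes are switched on later, in G2, by complexes that bind CHR elements and CCAAT boxes in their promoters. Embryonic stem cells divide fast with a short G1 phase, high cyclin E activity and low levels of D-type cyclins, and G1 lengthens as they differentiate.

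The cells were CGR8-Myh6-GFP mESCs, a mouse embryonic stem cell line with a GFP reporter driven by the promoter of the cardiomyocyte gene Myh6. They differentiated without directing factors in medium with serum and without LIF, so that every culture is a mixture of cell types. From day 4 they received the vehicle DMSO, WS1442 at 0.25 mg/ml, a dry extract of hawthorn leaves with flowers, or MeOH eluate at 0.1 mg/ml, a fraction of this extract that is enriched in oligomeric procyanidins. RNA was taken after 6 h or 24 h and hybridised to 1-colour Agilent arrays, which gave 2 arrays for each DMSO group and 3 for each treated group, 16 in 6 groups. The study examined how the extract acts on cardiac differentiation, and the comparisons below address the transcripts of the division machinery. By imaging of WS1442-treated cultures, the study also reported no significant change from DMSO in cell number or in Ki67, a protein marker of proliferation. The values below are of RNA and not of protein or cell number. Nothing in the labels says that replicates came from separate passages or days, so p-values measure the spread between these samples, which may be technical.

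Values below are log2 signals after quantile normalization over all arrays, and changes are differences of these between group means, given with standard errors of the fit. A gene was called when its p-value from limma, adjusted by the Benjamini-Hochberg method over all 29298 genes, was under 0.05. The 8 arrays of a time point shared a slide, so 6 h and 24 h levels also differ by slide, whereas treated and DMSO arrays of a time point share theirs. On each slide the DMSO arrays lay in column 1, WS1442 in columns 2 and 3 and MeOH eluate in columns 3 and 4, and the part of position in the results was not tested. Between 55.1% and 63.0% of gene spots per array were well above background. Cy3 incorporation was 31.8 to 32.8 pmol per microgram in WS1442 at 24 h against 25.8 and 26.1 in DMSO at 24 h, and the lowest RNA integrity number was 8.6, in WS1442 24 h replicate 2. The part of these in the results was not tested. As the RNA came from whole cultures, fewer cycling cells and less RNA per cycling cell cannot be told apart.

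No member changed by as much as 2-fold in any comparison with DMSO, and the largest change was 1.67-fold, for Ccnd1 with MeOH eluate at 6 h. With WS1442 at 6 h, 2 members rose and 1 fell, 3 of 48 or 6.25%, against 5.6% of all genes tested, of which 4.14% rose and 1.45% fell. MeOH eluate at 6 h was followed by a rise of 1 member and a fall of 11, which is 25% of members against 17% of all genes (8.66% higher and 8.39% lower). At 24 h, 9 members rose and 12 fell with WS1442, 43.8% against 24.7% of all genes (12.9% higher and 11.9% lower). MeOH eluate at 24 h gave 1 rise and 13 falls, 29.2% of members against 18.2% of all genes (9.64% higher and 8.6% lower). The members' share called was higher than the background in each comparison, but among the 5551 genes with a mean log2 signal of at least 10.23, the lower quartile of the members, the shares called were 10.8%, 28%, 47.6% and 36.8% in the same order, none of them below the share of the members. In that set the calls were about evenly split with MeOH eluate, with 15.7% of genes higher and 12.3% lower at 6 h and 18.5% higher and 18.3% lower at 24 h, whereas 11 of 12 and 13 of 14 called members were lower.

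Median changes of the members were small, at 0.06 with WS1442 and -0.05 with MeOH eluate at 6 h and at -0.01 and -0.09 at 24 h. The medians of all genes were -0.01, -0.00, 0.04 and 0.01. When arrays were scaled to their 75th percentiles instead, the members' medians became 0.12, -0.11, -0.13 and -0.21, while those of all genes stayed within 0.03 of 0. Scaling decided how the calls for WS1442 at 24 h were split, with 3 members higher and 15 lower in place of 9 and 12. Of all genes, that scaling called 5.87%, 14.2%, 24.5% and 17.6% in the 4 comparisons with DMSO, in the same order. At the study's limits, a change of more than 2-fold and an unadjusted p-value under 0.05, 0 members passed in any of the 4 comparisons with DMSO, against 0.43%, 2.11%, 2.08% and 2.99% of all genes. An unadjusted p-value under 0.05 in limma, without the limit on size, was reached by 11, 17, 27 and 22 members. No share of all genes was set beside counts at this limit, here or below, so they are not a result particular to the members. The methods' t-test, run on the same values, also gave 0 members at these limits, and after Benjamini-Hochberg adjustment it called 0, 0, 0 and 2 members. Every treated array lay above both DMSO arrays for 15 members and below them for 7 with WS1442 at 6 h (20.1% and 15.9% of all genes), for 6 and 19 with MeOH eluate at 6 h (25.6% and 24.6%), for 16 and 17 with WS1442 at 24 h (27.8% and 23.4%) and for 9 and 28 with MeOH eluate at 24 h (22.1% and 21.5%).

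**Figure D1:**
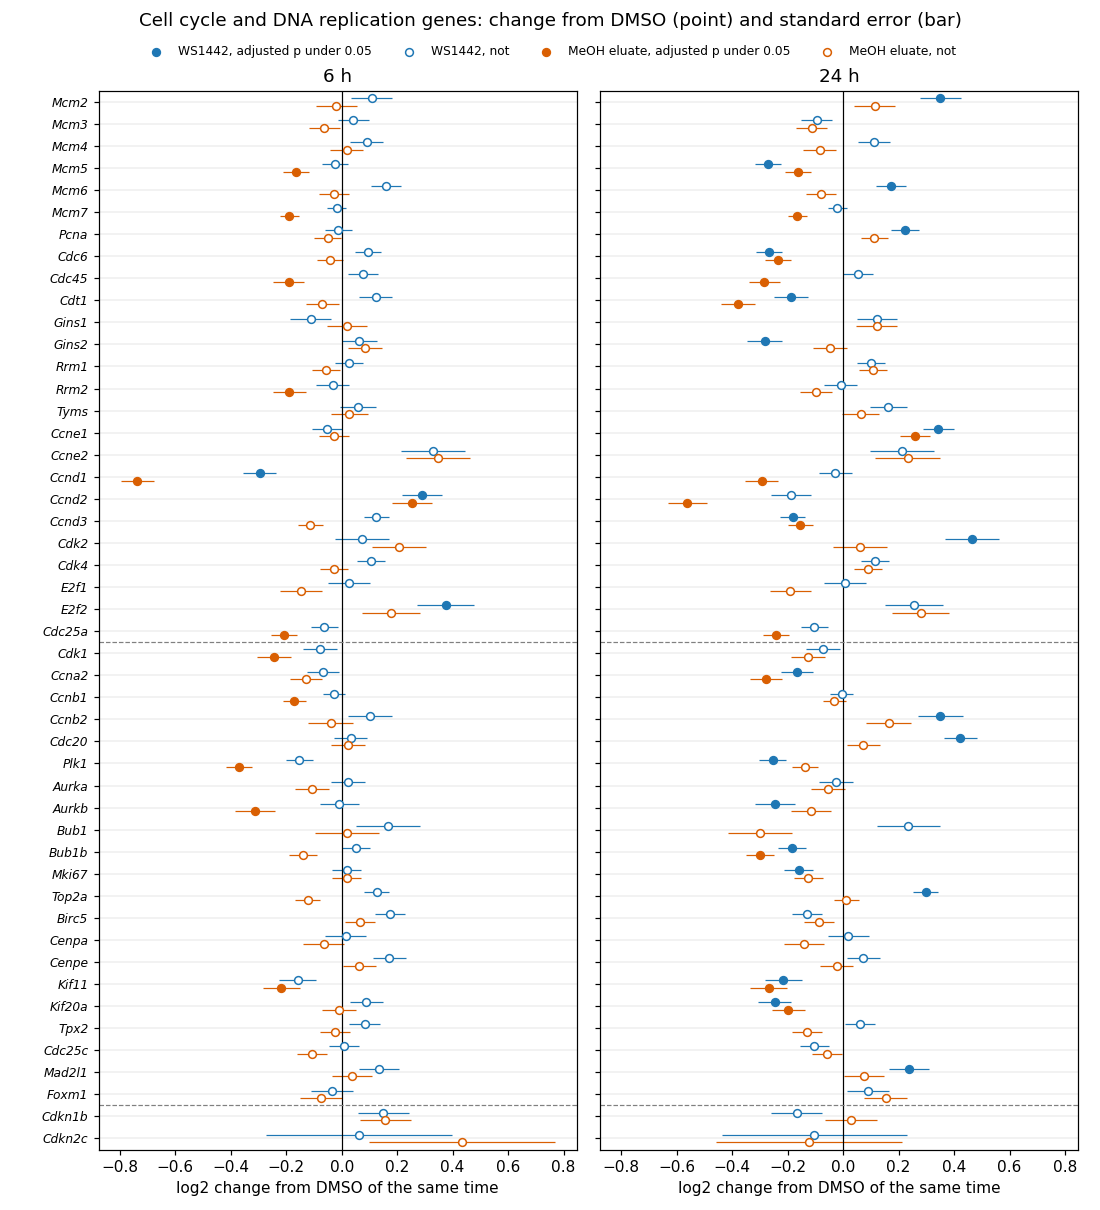
Log2 change from DMSO of the same time point (x axis) for each of the 48 members (y axis), at 6 h on the left and 24 h on the right, with WS1442 in blue and MeOH eluate in orange. Points are the fitted changes, bars their standard errors and filled points the called changes, 3 and 12 at 6 h and 21 and 14 at 24 h, and dashed lines separate G1/S and replication genes, mitotic genes and inhibitors.

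Ccnd1 and Ccnd2 gave the largest changes from DMSO among the members, and the D-type cyclins did not move together. Cyclin D1 (Ccnd1), the mitogen-induced activator of CDK4 and CDK6, read 8.95 and 8.91 with DMSO, 8.62, 8.68 and 8.61 with WS1442 and 8.20, 8.24 and 8.14 with MeOH eluate at 6 h. All 3 groups were apart, in the order DMSO, WS1442 and MeOH eluate. Ccnd1 fell by 0.30 on the log2 scale with WS1442 (adjusted p = 0.0119) and by 0.74 with MeOH eluate (adjusted p = 1.58e-06). The call for WS1442 was lost without DMSO 6 h replicate 1. It was also lost with normexp correction, with only the arrays of the time point and with replicate number as a block. Its change ran from -0.32 to -0.18 over all alternatives. At 24 h it read 8.65 and 8.61 with DMSO, 8.59, 8.64 and 8.56 with WS1442 and 8.33, 8.31 and 8.36 with MeOH eluate. Here the MeOH eluate arrays alone were below DMSO, with a change of -0.29 ± 0.06 (adjusted p = 0.00266), whereas WS1442 overlapped DMSO and differed from it by -0.03 ± 0.06 (adjusted p = 0.774). The change with MeOH eluate was thus smaller at 24 h than at 6 h, by 0.44 ± 0.08 (adjusted p = 0.00411).

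Cyclin D2 (Ccnd2), another partner of CDK4 and CDK6, was the only member called higher with both treatments at 6 h. It read 9.77 and 9.78 with DMSO, 10.02, 10.00 and 10.18 with WS1442 and 9.94, 10.01 and 10.13 with MeOH eluate. Every treated array was above both DMSO arrays, with changes of 0.29 ± 0.07 (adjusted p = 0.0299) for WS1442 and 0.25 ± 0.07 (adjusted p = 0.0252) for MeOH eluate. At 24 h the order was turned, with 10.47 and 10.51 with DMSO, 10.35, 10.30 and 10.25 with WS1442 and 10.04, 9.86 and 9.90 with MeOH eluate. Every treated array now lay below both DMSO arrays. Ccnd2 fell with MeOH eluate (-0.56 ± 0.07, adjusted p = 6.29e-05), and the value for WS1442 was -0.19 ± 0.07 (adjusted p = 0.0693). The effects at 24 h and 6 h differed by -0.48 ± 0.10 (adjusted p = 0.00836) for WS1442 and by -0.81 ± 0.10 (adjusted p = 0.000147) for MeOH eluate, the largest such difference among the members. At 24 h the lower level with MeOH eluate kept its call in 27 of 27 alternative limma fits, which changed the normalization, the probes, the model or the samples. The rise at 6 h with WS1442 was lost without DMSO 6 h replicate 1, DMSO 6 h replicate 2 and WS1442 6 h replicate 3, each left out alone (adjusted p up to 0.23 over all alternatives), and that with MeOH eluate was lost without DMSO 6 h replicate 1, DMSO 6 h replicate 2 and MeOH eluate 6 h replicate 3, each left out alone (adjusted p up to 0.141 over all alternatives) and was not called under scaling to the 75th percentile.

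Cyclin D3 (Ccnd3), the third D-type cyclin, fell with both treatments at 24 h. Its signals were 12.99 and 13.05 with DMSO, 12.83, 12.89 and 12.79 with WS1442 and 12.86, 12.92 and 12.81 with MeOH eluate. The treated arrays were below both DMSO arrays, with changes of -0.18 ± 0.05 (adjusted p = 0.00857) and -0.16 ± 0.05 (adjusted p = 0.0261) for WS1442 and MeOH eluate. The call for WS1442 was lost without DMSO 24 h replicate 2 (adjusted p up to 0.071 over all alternatives), and that for MeOH eluate was lost without DMSO 24 h replicate 1, DMSO 24 h replicate 2, MeOH eluate 24 h replicate 1 and MeOH eluate 24 h replicate 3, each left out alone (adjusted p up to 0.163 over all alternatives). A further probe of Ccnd3 gave -0.33 and -0.25. At 6 h the values were 0.12 ± 0.05 (adjusted p = 0.128) and -0.11 ± 0.05 (adjusted p = 0.0995), and the effect of WS1442 differed between the times by -0.31 ± 0.06 (adjusted p = 0.0077).

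Cyclin E1 (Ccne1), which activates CDK2 at the start of S phase, rose with both treatments at 24 h. The 24 h signals were 12.09 and 12.04 with DMSO, 12.34, 12.36 and 12.53 with WS1442 and 12.37, 12.34 and 12.27 with MeOH eluate. All treated arrays were above DMSO, by 0.34 ± 0.05 (adjusted p = 0.000442) and 0.26 ± 0.05 (adjusted p = 0.00346). At 6 h they had been 12.63 and 12.61 with DMSO, 12.53, 12.57 and 12.60 with WS1442 and 12.60, 12.55 and 12.63 with MeOH eluate, and the changes were -0.05 ± 0.05 (adjusted p = 0.667) and -0.03 ± 0.05 (adjusted p = 0.784). Both rises at 24 h kept their calls in 27 of 27 alternative limma fits. The kinase partner Cdk2 rose with WS1442 at 24 h, by 0.47 ± 0.10 (adjusted p = 0.00303). It read 10.21 and 10.25 with DMSO, 10.57, 10.64 and 10.87 with WS1442 and 10.39, 10.26 and 10.22 with MeOH eluate, so that WS1442 stood above both other groups, and MeOH eluate differed from DMSO by 0.06 ± 0.10 (adjusted p = 0.77). The other G1 members Ccne2, Cdk4 and E2f1 were not called in any comparison with DMSO. A further probe of Cdk4 was lower, however, with a change of -0.34 for WS1442 at 24 h (adjusted p = 0.000596) and of -0.26 for MeOH eluate at 6 h (adjusted p = 0.00561). These p-values and those of further probes given below were adjusted in limma over all probes kept. E2f2, an activating E2F factor, rose with WS1442 at 6 h (0.37, adjusted p = 0.0488), a call kept in only 7 of 27 alternative limma fits.

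**Figure D2:**
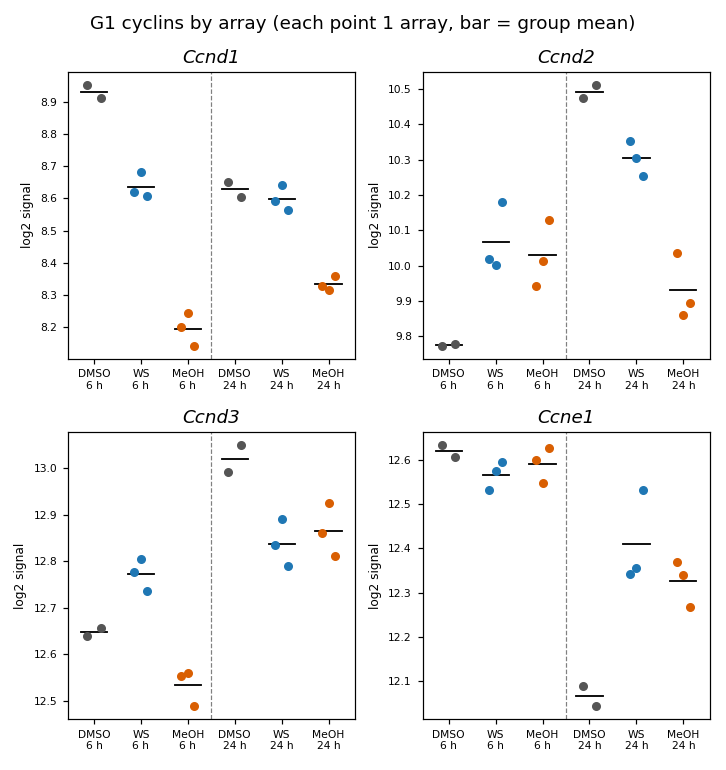
Log2 signal (y axis) of Ccnd1, Ccnd2, Ccnd3 and Ccne1 on each array, with the 6 groups on the x axis and DMSO in grey, WS1442 (WS) in blue and MeOH eluate (MeOH) in orange. Each point is 1 array and each bar a group mean; Ccnd2 lay above DMSO on all treated arrays at 6 h and below it on all at 24 h, and the dashed line separates the slides.

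Of the 25 G1/S and replication members, 1 rose and 6 fell with MeOH eluate at 6 h and 1 rose and 9 fell at 24 h, whereas 2 rose and 1 fell with WS1442 at 6 h and 5 rose and 5 fell at 24 h. With MeOH eluate these calls were 28% and 40% of the 25. All genes gave 17% and 18.2%, and the 5551 brighter genes 28% and 36.8%. With WS1442 the calls were 12% and 40%, against 5.6% and 24.7% of all genes and 10.8% and 47.6% of brighter genes. Mcm5 and Mcm7 encode subunits of the replicative helicase. Mcm7 read 13.33 and 13.32 with DMSO, 13.32, 13.30 and 13.31 with WS1442 and 13.14, 13.12 and 13.15 with MeOH eluate at 6 h. The MeOH eluate arrays were below all others, with a change of -0.19 ± 0.03 (adjusted p = 0.00178) from DMSO, and WS1442 differed from DMSO by -0.02 ± 0.03 (adjusted p = 0.837). At 24 h its signals were 13.48 and 13.47 with DMSO, 13.43, 13.46 and 13.47 with WS1442 and 13.34, 13.34 and 13.26 with MeOH eluate, the same order, with -0.17 ± 0.03 (adjusted p = 0.003) and -0.02 ± 0.03 (adjusted p = 0.695). Mcm7 had the smallest standard error of the members, 0.03, and these falls with MeOH eluate kept their calls in 27 of 27 alternative limma fits at 6 h and at 24 h.

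Mcm5 fell with MeOH eluate at both times (-0.17, adjusted p = 0.0227 at 6 h and -0.16, adjusted p = 0.0216 at 24 h) and with WS1442 at 24 h (-0.27 ± 0.05, adjusted p = 0.000682). At 24 h it read 12.96 and 12.92 with DMSO, 12.76, 12.63 and 12.61 with WS1442 and 12.75, 12.81 and 12.77 with MeOH eluate, so that both treatments were below DMSO. With WS1442 at 6 h the value was -0.02 ± 0.05 (adjusted p = 0.844). The fall with MeOH eluate at 6 h was lost without DMSO 6 h replicate 1, DMSO 6 h replicate 2 and MeOH eluate 6 h replicate 3, each left out alone (adjusted p up to 0.131 over all alternatives) and that at 24 h was lost without DMSO 24 h replicate 1, MeOH eluate 24 h replicate 1 and MeOH eluate 24 h replicate 3, each left out alone (adjusted p up to 0.192 over all alternatives). Other helicase subunits differed from Mcm5 at 24 h. Mcm2 rose with WS1442 by 0.35 (adjusted p = 0.00309) and Mcm6 by 0.17 (adjusted p = 0.0305), but under scaling to the 75th percentile neither was called and the value for Mcm6 turned to -0.06. Mcm3 and Mcm4 were not called against DMSO, though a further probe of Mcm3 gave -0.28 with MeOH eluate at 24 h (adjusted p = 0.0404).

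Cdc6 and Cdt1 load the helicase onto origins. At 24 h Cdt1 read 12.96 and 12.85 with DMSO, 12.80, 12.65 and 12.72 with WS1442 and 12.59, 12.57 and 12.43 with MeOH eluate. The 3 groups did not overlap, and Cdt1 fell by 0.38 with MeOH eluate (adjusted p = 0.000408) and by 0.19 with WS1442 (adjusted p = 0.0339). At 6 h the values were 0.12 ± 0.06 (adjusted p = 0.283) for WS1442 and -0.07 ± 0.06 (adjusted p = 0.488) for MeOH eluate, and for both treatments the effect was lower at 24 h than at 6 h, with differences of -0.31 (adjusted p = 0.0285) and -0.31 (adjusted p = 0.0381). The fall with WS1442 was lost without DMSO 24 h replicate 1, WS1442 24 h replicate 2 and WS1442 24 h replicate 3, each left out alone (adjusted p up to 0.298 over all alternatives). Cdc6 read 11.44 and 11.39 with DMSO, 11.20, 11.14 and 11.10 with WS1442 and 11.18, 11.19 and 11.17 with MeOH eluate at 24 h, with all treated arrays below DMSO. Its changes were -0.27 ± 0.05 (adjusted p = 0.000878) with WS1442 and -0.24 ± 0.05 (adjusted p = 0.00218) with MeOH eluate. A further probe of Cdc6 gave 0.09 for WS1442 and -0.12 for MeOH eluate, and with the mean over the probes the call for WS1442 was lost.

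Cdc45 joins the helicase when origins fire. By its brightest probe it read 10.69 and 10.81 with DMSO, 10.82, 10.80 and 10.86 with WS1442 and 10.55, 10.51 and 10.63 with MeOH eluate at 6 h and 11.03 and 11.11 with DMSO, 11.10, 11.11 and 11.17 with WS1442 and 10.83, 10.80 and 10.73 with MeOH eluate at 24 h. MeOH eluate was below both other groups at each time. Its changes from DMSO were -0.19 ± 0.06 (adjusted p = 0.0278) and -0.28 ± 0.06 (adjusted p = 0.00191), with a further probe at -0.30 and -0.32, whereas WS1442 differed from DMSO by 0.08 ± 0.06 (adjusted p = 0.502) and 0.05 ± 0.06 (adjusted p = 0.536). With WS1442 the further probe was lower too, at -0.15 and -0.19, and not called (adjusted p = 0.078 at 24 h). The fall at 6 h was lost without DMSO 6 h replicate 2, MeOH eluate 6 h replicate 1 and MeOH eluate 6 h replicate 2, each left out alone (adjusted p up to 0.25 over all alternatives). Cdc25a, the phosphatase that activates CDK2 at the G1/S boundary, was also lower with MeOH eluate. It read 11.50 and 11.45 with DMSO, 11.36, 11.41 and 11.34 with WS1442 and 11.24, 11.26 and 11.19 with MeOH eluate at 24 h, and its changes with MeOH eluate were -0.21 ± 0.05 (adjusted p = 0.00775) at 6 h and -0.24 ± 0.05 (adjusted p = 0.00212) at 24 h, the first lost without DMSO 6 h replicate 2 (adjusted p up to 0.0661 over all alternatives). WS1442 values were -0.06 ± 0.05 (adjusted p = 0.526) and -0.10 ± 0.05 (adjusted p = 0.13).

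Pcna, the sliding clamp of the DNA polymerases and a common marker of S phase, was not called lower in any comparison. It read 12.37 and 12.48 with DMSO, 12.36, 12.40 and 12.47 with WS1442 and 12.33, 12.37 and 12.42 with MeOH eluate at 6 h, with overlapping groups, and the changes were -0.01 ± 0.05 (adjusted p = 0.935) and -0.05 ± 0.05 (adjusted p = 0.538). At 24 h it read 12.33 and 12.33 with DMSO, 12.56, 12.50 and 12.59 with WS1442 and 12.46, 12.47 and 12.40 with MeOH eluate. The treated arrays were above DMSO, and the rise was called for WS1442 (0.22 ± 0.05, adjusted p = 0.00412) but not for MeOH eluate (0.11 ± 0.05, adjusted p = 0.138). Under scaling to the 75th percentile the rise with WS1442 was 0.09 and not called. Of the remaining replication members, Gins2 of the GINS helicase complex fell with WS1442 at 24 h (-0.28, adjusted p = 0.0043), and Rrm2, a subunit of ribonucleotide reductase, fell with MeOH eluate at 6 h (-0.19, adjusted p = 0.0403), a call lost without DMSO 6 h replicate 1, DMSO 6 h replicate 2, MeOH eluate 6 h replicate 1, MeOH eluate 6 h replicate 2, MeOH eluate 6 h replicate 3 and MeOH eluate 24 h replicate 1, each left out alone (adjusted p up to 0.244 over all alternatives). Gins1, Rrm1 and Tyms were not called against DMSO. Of 2 further probes of Gins1, 1 was lower with WS1442 at 24 h (-0.44, adjusted p = 0.000425) and with MeOH eluate at 6 h (-0.30, adjusted p = 0.00922), and the other gave 0.11 and -0.11.

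**Figure D3:**
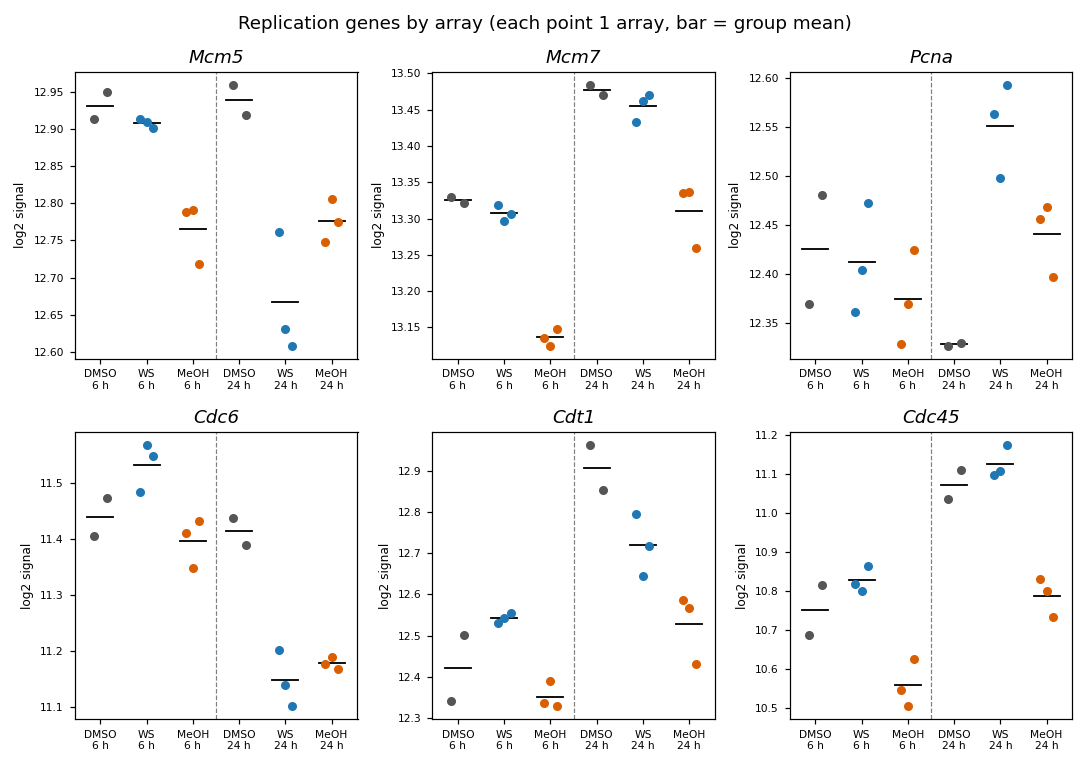
Log2 signal (y axis) of Mcm5, Mcm7, Pcna, Cdc6, Cdt1 and Cdc45 on each array, with the 6 groups on the x axis and DMSO in grey, WS1442 (WS) in blue and MeOH eluate (MeOH) in orange. Each point is 1 array and each bar a group mean; Mcm7 and Cdc45 were lower on all MeOH eluate arrays than on the DMSO and WS1442 arrays of their time point, and scales differ between panels.

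Promoter windows of 250 bases before to 50 after a start site were held by RefSeq tables (GRCm38.p6) for 36 members, as 40 windows. They were searched on both strands for an E2F core. Its spellings were TTCCCGC (as well as TTCGCGC in place of it), and TTGCCGC (as well as TTGGCGC in place of it). These letters stood in 12 of 22 windows of G1/S and replication genes (54.5%) and in 3 of 15 windows of mitotic genes (20%), against 9.57% of 32851 windows of all genes. The match is a description of the letters and not of binding. Stretches are shown for 3 members that fell with MeOH eluate at 24 h, Mcm5, Cdc6 and Cdc25a, and for Mcm6. With WS1442 at 24 h Mcm5 and Cdc6 fell too, whereas Cdc25a was not called (-0.10). Mcm6 rose with WS1442 at 24 h after quantile normalization, a call kept in 20 of 27 alternative limma fits. With MeOH eluate at 24 h Mcm6 was not called (-0.08). The part of the E2F core in these changes was not tested. The stretches are Mcm5 at chr8:75109323-75109388 (plus strand), Cdc6 at chr11:98907991-98908041 (plus strand), Cdc25a at chr9:109875491-109875544 (plus strand) and Mcm6 at chr1:128359720-128359836 (minus strand). Capitals mark the E2F core on either strand, and runs longer than 7 letters hold overlapping matches.
Mcm5: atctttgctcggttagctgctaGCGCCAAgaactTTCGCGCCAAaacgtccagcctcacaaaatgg
Cdc6: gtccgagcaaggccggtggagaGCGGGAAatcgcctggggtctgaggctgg
Cdc25a: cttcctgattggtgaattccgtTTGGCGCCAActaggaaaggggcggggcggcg
Mcm6: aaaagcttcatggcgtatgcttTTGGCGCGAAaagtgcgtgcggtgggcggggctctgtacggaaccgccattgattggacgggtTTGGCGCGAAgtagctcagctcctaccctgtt
The Mcm5 stretch held 3 matches, starting 164, 152 and 149 bases before the start site, and the Cdc6 stretch held 1, at 138. In Cdc25a the 2 matches at 66 and 63 overlap on opposite strands. Mcm6 held 4 in the stretch, at 109, 106, 46 and 43, and 1 more after the start. No match was found in the window of Ccne1 or Pcna, which rose at 24 h with WS1442, nor in that of Cdc45, which fell with MeOH eluate. The window of Cdk2, which also rose with WS1442 at 24 h, held 3 matches. That of Cdt1, which fell with both treatments at 24 h, held 2.

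Among mitotic genes, 5 fell and 0 rose with MeOH eluate at 6 h, where no mitotic gene was called with WS1442 in limma (5 at an unadjusted p-value under 0.05). The share called with MeOH eluate was 23.8%, against 17% of all genes and 28% of the 5551 brighter genes. With WS1442 it was 0%, against 5.6% and 10.8%. Polo-like kinase 1 (Plk1), which drives entry into mitosis, changed most. At 6 h it read 13.41 and 13.30 with DMSO, 13.20, 13.18 and 13.23 with WS1442 and 13.00, 13.04 and 12.92 with MeOH eluate. The MeOH eluate arrays were lowest and the WS1442 arrays lay between them and DMSO, with changes of -0.37 ± 0.05 (adjusted p = 0.000114) and -0.15 ± 0.05 (adjusted p = 0.0774). At 24 h the signals were 13.22 and 13.21 with DMSO, 13.00, 12.97 and 12.91 with WS1442 and 13.02, 13.12 and 13.09 with MeOH eluate, with WS1442 lowest. Plk1 fell with WS1442 at 24 h by 0.25 (adjusted p = 0.00141), and MeOH eluate differed from DMSO by -0.14 ± 0.05 (adjusted p = 0.061). The calls for MeOH eluate at 6 h and WS1442 at 24 h were kept in 27 of 27 and 27 of 27 alternative limma fits.

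Aurora kinase B (Aurkb), the kinase of the chromosomal passenger complex, was likewise lowest with MeOH eluate at 6 h and with WS1442 at 24 h. It read 9.73 and 9.82 with DMSO, 9.74, 9.71 and 9.85 with WS1442 and 9.55, 9.55 and 9.30 with MeOH eluate at 6 h and 10.00 and 9.98 with DMSO, 9.78, 9.74 and 9.73 with WS1442 and 9.89, 9.87 and 9.87 with MeOH eluate at 24 h. MeOH eluate at 6 h and both treatments at 24 h were below DMSO on every array. Aurkb fell with MeOH eluate at 6 h (-0.31 ± 0.07, adjusted p = 0.00802) and with WS1442 at 24 h (-0.25 ± 0.07, adjusted p = 0.0213), and the other values were -0.01 ± 0.07 (adjusted p = 0.972) and -0.12 ± 0.07 (adjusted p = 0.322). The fall at 6 h was lost without DMSO 6 h replicate 2 (adjusted p up to 0.0762 over all alternatives) and that at 24 h was lost without DMSO 24 h replicate 1, DMSO 24 h replicate 2, WS1442 24 h replicate 2 and WS1442 24 h replicate 3, each left out alone (adjusted p up to 0.127 over all alternatives).

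Cdk1, the kinase that drives mitosis, and its partner cyclin B1 (Ccnb1) fell with MeOH eluate at 6 h. Cdk1 read 13.07 and 13.15 with DMSO, 12.97, 12.99 and 13.14 with WS1442 and 12.89, 12.92 and 12.78 with MeOH eluate. Ccnb1 read 12.67 and 12.64 with DMSO, 12.60, 12.63 and 12.65 with WS1442 and 12.45, 12.47 and 12.54 with MeOH eluate. For both genes MeOH eluate was below the other groups, with -0.25 ± 0.06 (adjusted p = 0.0136) and -0.17 ± 0.04 (adjusted p = 0.0103). The call for Cdk1 was lost without DMSO 6 h replicate 2 and MeOH eluate 6 h replicate 3, each left out alone (adjusted p up to 0.11 over all alternatives) and that for Ccnb1 was lost without DMSO 6 h replicate 1 (adjusted p up to 0.106 over all alternatives). At 24 h neither was called, with -0.07 and -0.13 for Cdk1 and -0.01 and -0.03 for the brightest probe of Ccnb1. A further probe of Ccnb1 was lower at 24 h, with -0.42 for WS1442 (adjusted p = 0.000256) and -0.31 for MeOH eluate (adjusted p = 0.00224). The spindle motor Kif11 fell with MeOH eluate at 6 h (-0.22, adjusted p = 0.0355) and with both treatments at 24 h (-0.22, adjusted p = 0.0274 for WS1442 and -0.27, adjusted p = 0.0101 for MeOH eluate). Its 24 h signals were 9.45 and 9.47 with DMSO, 9.19, 9.21 and 9.34 with WS1442 and 9.17, 9.20 and 9.21 with MeOH eluate, with all treated arrays below DMSO. The call at 6 h was lost without DMSO 6 h replicate 1, DMSO 6 h replicate 2, MeOH eluate 6 h replicate 1 and MeOH eluate 6 h replicate 3, each left out alone (adjusted p up to 0.191 over all alternatives), that for WS1442 at 24 h was lost without DMSO 24 h replicate 1, DMSO 24 h replicate 2, WS1442 24 h replicate 1 and WS1442 24 h replicate 2, each left out alone (adjusted p up to 0.117 over all alternatives) and that for MeOH eluate at 24 h was lost without DMSO 24 h replicate 1 and DMSO 24 h replicate 2, each left out alone (adjusted p up to 0.0583 over all alternatives).

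After 24 h, 4 mitotic genes rose and 7 fell with WS1442, while 0 rose and 4 fell with MeOH eluate. The share called with WS1442 was 52.4%, against 24.7% of all genes and 47.6% of the 5551 brighter genes. With MeOH eluate it was 19%, against 18.2% and 36.8%. Bub1b, a kinase-like protein of the spindle checkpoint, read 11.24 and 11.22 with DMSO, 11.11, 11.03 and 10.99 with WS1442 and 10.91, 10.98 and 10.90 with MeOH eluate. Both treatments were below DMSO, with changes of -0.18 ± 0.05 (adjusted p = 0.0165) and -0.30 ± 0.05 (adjusted p = 0.000675), and a further probe gave -0.38 and -0.42. The call for WS1442 was lost without DMSO 24 h replicate 1, DMSO 24 h replicate 2 and WS1442 24 h replicate 3, each left out alone (adjusted p up to 0.11 over all alternatives). Cyclin A2 (Ccna2), which acts in S phase and G2, read 11.50 and 11.39 with DMSO, 11.28, 11.36 and 11.20 with WS1442 and 11.15, 11.17 and 11.18 with MeOH eluate. It fell with MeOH eluate (-0.28 ± 0.06, adjusted p = 0.00294), a call lost without DMSO 24 h replicate 1 (adjusted p up to 0.0587 over all alternatives), and with WS1442 (-0.17 ± 0.06, adjusted p = 0.0481), a call kept in only 8 of 27 alternative limma fits. Kif20a, a motor of cytokinesis, read 11.05 and 10.99 with DMSO, 10.80, 10.80 and 10.72 with WS1442 and 10.76, 10.91 and 10.80 with MeOH eluate and fell by 0.25 (adjusted p = 0.00754) and 0.20 (adjusted p = 0.0323). The fall of Kif20a with WS1442 was lost without DMSO 24 h replicate 1 (adjusted p up to 0.0815 over all alternatives) and that with MeOH eluate was lost without DMSO 24 h replicate 1, DMSO 24 h replicate 2, MeOH eluate 24 h replicate 1 and MeOH eluate 24 h replicate 3, each left out alone (adjusted p up to 0.215 over all alternatives).

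Mki67, the gene of the proliferation marker Ki-67, read 12.74 and 12.65 with DMSO, 12.74, 12.76 and 12.64 with WS1442 and 12.72, 12.64 and 12.78 with MeOH eluate at 6 h. The groups overlapped, and the changes were 0.02 ± 0.05 (adjusted p = 0.907) and 0.02 ± 0.05 (adjusted p = 0.866). At 24 h it read 13.06 and 13.07 with DMSO, 12.95, 12.95 and 12.83 with WS1442 and 12.95, 12.94 and 12.94 with MeOH eluate. All treated arrays were below DMSO, with -0.16 ± 0.05 (adjusted p = 0.0384) for WS1442 and -0.13 ± 0.05 (adjusted p = 0.12) for MeOH eluate. The first of these was called, a loss of 10.5% in signal, and was lost without DMSO 24 h replicate 1, DMSO 24 h replicate 2 and WS1442 24 h replicate 3, each left out alone (adjusted p up to 0.149 over all alternatives).

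The mitotic genes that rose with WS1442 at 24 h were Cdc20, Ccnb2, Top2a and Mad2l1. Cdc20, which activates the anaphase-promoting complex, read 13.55 and 13.56 with DMSO, 13.93, 13.94 and 14.07 with WS1442 and 13.72, 13.57 and 13.59 with MeOH eluate. WS1442 was above both other groups, and the change was 0.42 ± 0.06 (adjusted p = 0.000192), against 0.07 ± 0.06 (adjusted p = 0.487) for MeOH eluate. The rise of Cdc20 was 0.21 and still called under scaling to the 75th percentile. Cyclin B2 (Ccnb2) read 12.77 and 12.88 with DMSO, 13.10, 13.11 and 13.31 with WS1442 and 13.06, 12.98 and 12.92 with MeOH eluate and changed by 0.35 ± 0.08 (adjusted p = 0.0055) with WS1442 and by 0.16 ± 0.08 (adjusted p = 0.191) with MeOH eluate, and its rise was not called under that scaling and was lost without DMSO 24 h replicate 1 (adjusted p up to 0.0738 over all alternatives). Topoisomerase II alpha (Top2a) read 15.06 and 15.06 with DMSO, 15.37, 15.28 and 15.41 with WS1442 and 15.10, 15.06 and 15.04 with MeOH eluate, a rise of 0.30 with WS1442 (adjusted p = 0.000308), but 2 further probes of Top2a gave -0.13 and -0.48, the mean over its probes was -0.11, and under the scaling to the 75th percentile the rise was not called. For the checkpoint gene Mad2l1 (0.24, adjusted p = 0.0256) a further probe likewise gave -0.24, so that the direction of Top2a and Mad2l1 depends on the probe. The mitotic members Aurka, Birc5, Bub1, Cdc25c, Cenpa, Cenpe, Foxm1 and Tpx2 were not called against DMSO by their brightest probes, with changes between -0.30 and 0.24, both ends in Bub1 at 24 h (-0.30 with MeOH eluate and 0.24 with WS1442). For Cenpa, the centromeric histone, a further probe gave -0.54 with WS1442 at 24 h (adjusted p = 0.000322), -0.28 with MeOH eluate at 6 h (adjusted p = 0.0303) and -0.31 at 24 h (adjusted p = 0.0141).

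**Figure D4:**
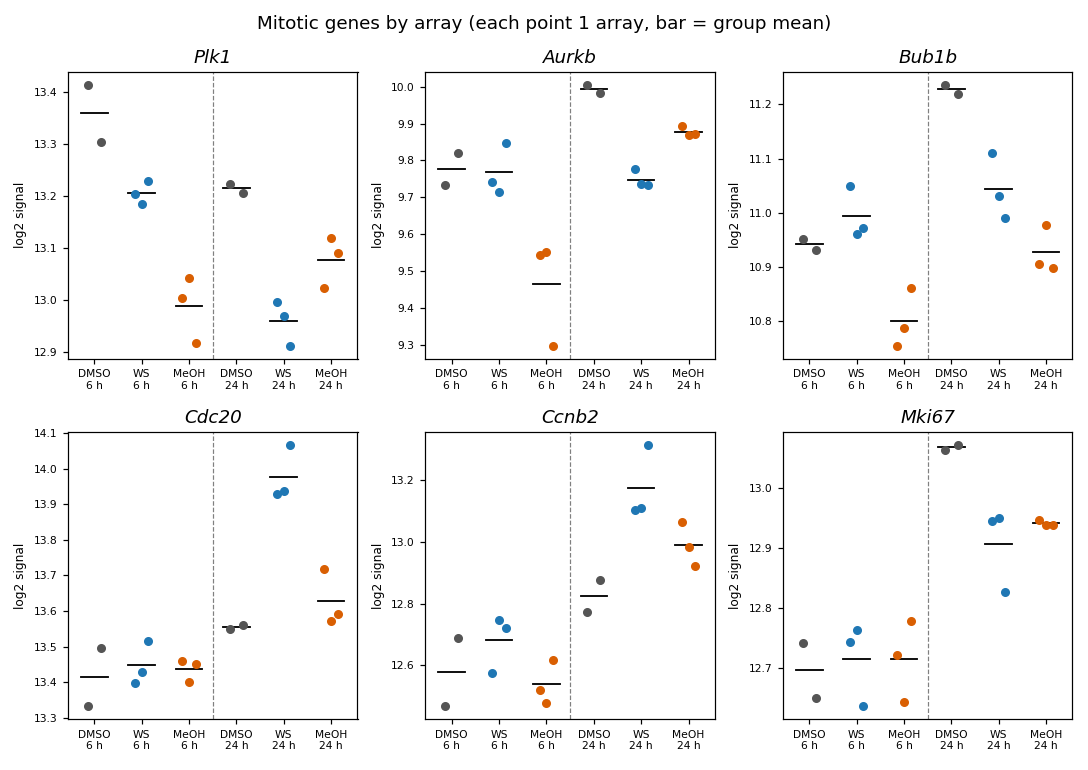
Log2 signal (y axis) of Plk1, Aurkb, Bub1b, Cdc20, Ccnb2 and Mki67 on each array, with the 6 groups on the x axis and DMSO in grey, WS1442 (WS) in blue and MeOH eluate (MeOH) in orange. Each point is 1 array and each bar a group mean; Plk1 and Aurkb were lowest with MeOH eluate at 6 h and with WS1442 at 24 h, and Cdc20 was highest with WS1442 at 24 h.

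In the promoter windows of mitotic genes, the CHR element spelled TTTGAA or TTCGAA stood in 11 of 15 (73.3%), against 4 of 22 windows of G1/S and replication genes (18.2%) and 19.2% of all windows. The CCAAT box stood in 13 of these 15 (86.7%), in 15 of 22 G1/S and replication windows (68.2%) and in 37.4% of all. A CCAAT box can share letters with an E2F core. Stretches are shown for 3 genes that fell, Cdk1, Kif11 and Mki67, and for Cdc20, which rose with WS1442 at 24 h. They are Cdk1 at chr10:69352913-69353005 (minus strand), Kif11 at chr19:37376341-37376381 (plus strand), Mki67 at chr7:135716450-135716517 (minus strand) and Cdc20 at chr4:118437344-118437383 (minus strand), and capitals mark the CHR element on either strand.
Cdk1: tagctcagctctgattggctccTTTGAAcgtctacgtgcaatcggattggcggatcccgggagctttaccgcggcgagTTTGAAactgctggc
Kif11: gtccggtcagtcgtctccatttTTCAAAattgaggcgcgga
Mki67: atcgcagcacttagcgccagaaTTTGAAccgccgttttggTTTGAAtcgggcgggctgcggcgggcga
Cdc20: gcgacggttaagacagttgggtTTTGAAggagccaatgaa
The element began 71 and 15 bases before the start site in Cdk1, 19 in Kif11, 116 and 98 in Mki67 and 18 in Cdc20. Kif11 and Cdc20 changed by -0.22 and 0.42 with WS1442 at 24 h, and the part of the element in these changes was not tested.

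Neither inhibitor among the members was called in limma in any comparison, and neither reached an unadjusted p-value under 0.05 against DMSO. Cdkn1b, which encodes an inhibitor of cyclin E and cyclin A kinases, read 7.94 and 8.13 with DMSO, 8.11, 8.14 and 8.31 with WS1442 and 8.24, 8.21 and 8.12 with MeOH eluate at 6 h and 8.78 and 8.83 with DMSO, 8.63, 8.61 and 8.67 with WS1442 and 8.93, 8.92 and 8.66 with MeOH eluate at 24 h. Its changes were 0.15 ± 0.09 (adjusted p = 0.411) and 0.16 ± 0.09 (adjusted p = 0.281) at 6 h and -0.17 ± 0.09 (adjusted p = 0.212) and 0.03 ± 0.09 (adjusted p = 0.901) at 24 h. Cdkn2c, an inhibitor of CDK4 and CDK6, lay near background and gave standard errors of 0.33, so that only large changes could have been detected. Its signals were 4.20 and 4.18 with DMSO, 4.27, 4.02 and 4.45 with WS1442 and 4.38, 4.89 and 4.60 with MeOH eluate at 6 h and 4.04 and 4.44 with DMSO, 4.18, 4.74 and 3.49 with WS1442 and 3.73, 4.05 and 4.58 with MeOH eluate at 24 h, with MeOH eluate above DMSO at 6 h and overlapping groups at 24 h.

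A list of 20 further inhibitors, pocket proteins and antiproliferative genes gave 3 rises and 0 falls with WS1442 at 6 h, 5 and 2 with MeOH eluate at 6 h, 5 and 3 with WS1442 at 24 h and 4 and 1 with MeOH eluate at 24 h. These are 15%, 35%, 40% and 25% of the list, against 5.6%, 17%, 24.7% and 18.2% of all genes and 10.8%, 28%, 47.6% and 36.8% of the 5551 brighter genes. The median changes were 0.14, 0.12, 0.12 and 0.06, and under scaling to the 75th percentile the counts were 3 and 0, 5 and 2, 4 and 4 and 4 and 1. Cdkn1a, the CDK inhibitor induced by p53, read 12.24 and 12.38 with DMSO, 13.12, 13.22 and 13.22 with WS1442 and 13.18, 13.01 and 13.14 with MeOH eluate at 24 h. It was higher on every treated array, by 0.88 ± 0.07 (adjusted p = 2.30e-06) and 0.80 ± 0.07 (adjusted p = 1.35e-06), and had risen by 0.39 with WS1442 at 6 h (adjusted p = 0.00511) and by 0.33 with MeOH eluate at 6 h (adjusted p = 0.00367). Also among the 2 smallest adjusted p-values of a comparison were the antiproliferative genes Btg2 (0.51 with WS1442 at 6 h) and Btg1 (0.47 with MeOH eluate at 6 h), the p53 target Ccng1 (0.55 with MeOH eluate at 24 h) and Fbxo5, an inhibitor of the anaphase-promoting complex, which fell by 0.43 with MeOH eluate at 6 h and by 0.62 with WS1442 at 24 h.

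Of 15 other E2F and MYC family genes, 1 rose and 3 fell with MeOH eluate at 6 h, 1 rose and 3 fell with WS1442 at 24 h, and 1 rose and 1 fell with MeOH eluate at 24 h. With WS1442 at 6 h limma called 0 of them, with 5 at an unadjusted p-value under 0.05. The shares called, 0%, 26.7%, 26.7% and 13.3% in the order of the comparisons above, stand against the same backgrounds of all genes (5.6%, 17%, 24.7% and 18.2%) and of brighter genes (10.8%, 28%, 47.6% and 36.8%). Myc, a growth-promoting transcription factor, read 10.33 and 10.47 with DMSO, 9.85, 9.81 and 9.84 with WS1442 and 9.37, 9.53 and 9.28 with MeOH eluate at 24 h. The 3 groups were apart, and Myc fell by 0.57 with WS1442 (adjusted p = 9.09e-05) and by 1.01 with MeOH eluate (adjusted p = 3.64e-07), after a fall of 0.40 with MeOH eluate at 6 h (adjusted p = 0.00172). The inhibitory factor E2f8 fell with MeOH eluate at 6 h (-0.61), and Mybl2, which acts in complexes at mitotic promoters, rose at 24 h (0.22 and 0.23). Under scaling to the 75th percentile 0 of the list rose and 4 fell with MeOH eluate at 6 h, 0 rose and 3 fell with WS1442 at 24 h and 1 rose and 1 fell with MeOH eluate at 24 h.

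Further genes of the same machinery were counted in larger lists. Of 40 other replication genes, 2 rose and 0 fell with WS1442 at 6 h, 2 and 9 with MeOH eluate at 6 h, 3 and 10 with WS1442 at 24 h and 1 and 8 with MeOH eluate at 24 h. The shares called were 5%, 27.5%, 32.5% and 22.5%, all of them below the 10.8%, 28%, 47.6% and 36.8% of brighter genes and all but the first above the 5.6%, 17%, 24.7% and 18.2% of all genes. The thymidine kinase gene Tk1, whose product salvages thymidine for DNA synthesis, had the smallest adjusted p-value of the list in the last 3 of these. It read 12.21 and 12.12 with DMSO, 11.77, 11.86 and 11.88 with WS1442 and 11.71, 11.70 and 11.66 with MeOH eluate at 24 h. Tk1 changed by -0.42 with MeOH eluate at 6 h (adjusted p = 4.58e-05), and by -0.33 and -0.47 at 24 h (adjusted p = 0.000294 and adjusted p = 1.04e-05). Next in rank were Dbf4, the activating subunit of the origin-firing kinase, which rose at 6 h (0.24 with WS1442 and 0.30 with MeOH eluate), the clamp loader subunit Rfc5 (0.15 with WS1442 at 6 h), the polymerase subunit Pold1 (-0.32 with WS1442 at 24 h) and the helicase loader Mcm10 (-0.26 with MeOH eluate at 24 h). The median changes of the list were 0.08, -0.04, -0.06 and -0.05. Under scaling to the 75th percentile the counts were 4 and 0, 1 and 9, 1 and 14 and 0 and 7.

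Of 40 other mitotic genes, 3 rose and 0 fell with WS1442 at 6 h, 2 and 10 with MeOH eluate at 6 h, 9 and 9 with WS1442 at 24 h and 2 and 5 with MeOH eluate at 24 h. The shares called were 7.5%, 30%, 45% and 17.5%, against the same 10.8%, 28%, 47.6% and 36.8% of brighter genes. The median changes were 0.05, -0.03, 0.00 and -0.07. Under scaling to the 75th percentile the counts became 4 and 0, 0 and 10, 5 and 11 and 0 and 8. The 2 smallest adjusted p-values belonged to Cdc25b (0.36) and Melk (0.18) with WS1442 at 6 h, and to Ube2c (-0.44) and Incenp (-0.24) with MeOH eluate at 6 h. At 24 h they belonged to Tacc3 (0.42) and Kif4 (0.29) with WS1442 and to Cdca2 (-0.38) and Spc25 (0.24) with MeOH eluate. Ube2c is the ubiquitin-conjugating enzyme of the anaphase-promoting complex, Incenp the scaffold of Aurkb, and Tacc3 and Kif4 act on the spindle and on chromosomes. Of 9 genes tested that accompany chromatin replication, such as Dnmt1 and Lmnb1, 0 rose and 2 fell with MeOH eluate at 6 h, 2 rose and 4 fell with WS1442 at 24 h and 0 rose and 6 fell with MeOH eluate at 24 h. With WS1442 at 6 h limma called 0 of the 9 and 0 reached an unadjusted p-value under 0.05. The shares called were 22.2%, 66.7% and 66.7% in the other 3 comparisons, against 28%, 47.6% and 36.8% of brighter genes. Lmnb1, the gene of lamin B1, changed by -0.37 with MeOH eluate at 6 h and by -0.37 and -0.40 with WS1442 and MeOH eluate at 24 h, all called. Under scaling to the 75th percentile the falls were as many, 2, 4 and 6, and the rises were 0. Dnmt1, the maintenance DNA methyltransferase, fell with MeOH eluate at 6 h (-0.33), the histone variant gene H2afz with WS1442 at 24 h (-0.27) and the lamina gene Tmpo with MeOH eluate at 24 h (-0.38).

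The treatments were also compared with each other at each time, at doses that differed (0.1 mg/ml of MeOH eluate and 0.25 mg/ml of WS1442). At 6 h, 14 members were lower with MeOH eluate and 0 were higher, 29.2% of members against 12.1% of all genes (4.79% higher and 7.35% lower) and 16.7% of the 5551 brighter genes (6.94% higher and 9.75% lower). The largest differences were in Ccnd1 (-0.44 ± 0.05, adjusted p = 0.000206), Aurkb (-0.30 ± 0.06, adjusted p = 0.00912), Cdc45 (-0.27 ± 0.05, adjusted p = 0.0043), Top2a (-0.25 ± 0.04, adjusted p = 0.0018) and Ccnd3 (-0.24 ± 0.04, adjusted p = 0.00248). Mcm5, Mcm6, Mcm7, Cdc6, Cdt1, Cdc25a, Ccnb1, Plk1 and Bub1b made up the rest. Of the 14 calls, 5 were kept in all alternative limma fits, those of Mcm7, Cdc45, Ccnd1, Plk1 and Top2a, whereas Cdc6 kept its call in 9 of 27 and Mcm5 in 15 of 27. The call of Mcm5 was lost without any 1 of the 6 treated arrays at 6 h (adjusted p up to 0.139 over all alternatives), and that of Cdc6 without any array at 6 h other than WS1442 6 h replicate 1 (up to 0.619). Under scaling to the 75th percentile 28 members were lower and 0 higher, and 16.2% of all genes were called in either direction. At the 2-fold limit with an unadjusted p-value under 0.05, 0 members passed at 6 h or 24 h (1.19% and 0.488% of all genes). At 6 h the groups did not overlap for 25 members lower and 1 higher, against 17.6% and 13.2% of all genes in those directions.

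At 24 h, 14 members were lower and 1 higher with MeOH eluate than with WS1442. These are 31.2%, against 14.6% of all genes (7.44% higher and 7.18% lower) and 31% of the brighter genes (16.7% higher and 14.3% lower). The share of members called was thus near that of the brighter genes, a set that leaves out the members below its floor of signal. Bub1, a kinase of the spindle checkpoint, differed most by its brightest probe (-0.53 ± 0.10, adjusted p = 0.00343), but with the mean over its probes the difference was -0.14 and not called (adjusted p = 0.229). It was followed by Cdk2 (-0.41 ± 0.09, adjusted p = 0.00662), Ccnd2 (-0.37 ± 0.06, adjusted p = 0.00163), Cdc20 (-0.35 ± 0.05, adjusted p = 0.000813) and Cdc45 (-0.34 ± 0.05, adjusted p = 0.000611). Gins2 was the member that was higher (0.24 ± 0.06, adjusted p = 0.0114). Mcm2, Mcm4, Mcm6, Mcm7, Cdt1, Ccnd1, Cdc25a, Top2a and Tpx2 were also lower, for Top2a only by its brightest probe, since the mean over its probes was 0.08. Of the 15 calls, 6 were kept in all alternative limma fits, those of Mcm6, Cdc45, Ccnd1, Ccnd2, Cdk2 and Cdc20. In the scaled data 8 members were lower and 1 higher, and 13.2% of all genes were called in either direction. Pcna and Mki67 were not called between the treatments at 24 h. The interval of the difference, MeOH eluate minus WS1442 and unadjusted for the number of genes, ran for Pcna from -0.20 to -0.02 and for Mki67 from -0.07 to 0.13 (95% confidence intervals on the log2 scale).

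**Figure D5:**
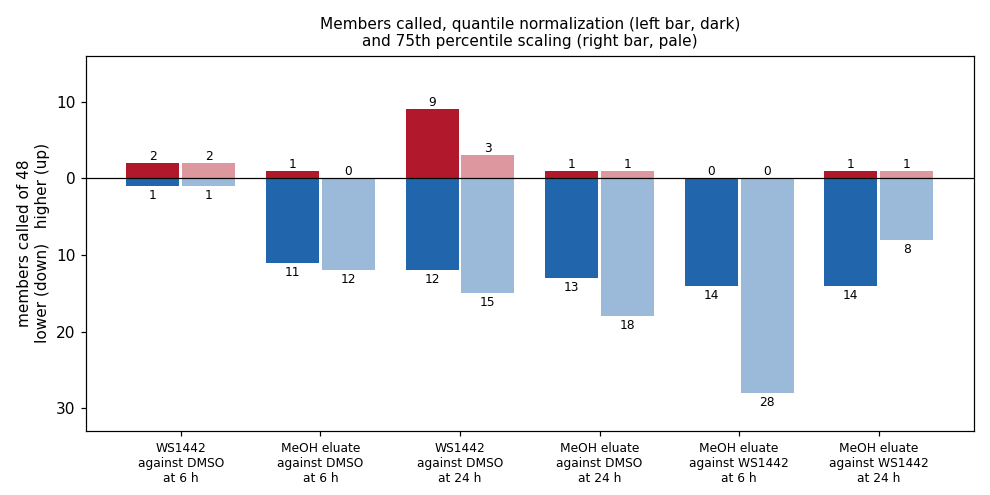
Number of the 48 members called higher (red, above 0) or lower (blue, below 0) on the y axis for 6 comparisons on the x axis, after quantile normalization (dark, left) and after scaling to the 75th percentile of each array (pale, right). With MeOH eluate nearly all calls were lower under both, whereas the split for WS1442 at 24 h went from 9 higher and 12 lower to 3 and 15.

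The effect of WS1442 differed between 24 h and 6 h for 12 members, 25% against 12.7% of all genes (5.73% higher and 6.96% lower). Brighter genes gave 26.3% (11.6% higher and 14.7% lower). Under scaling to the 75th percentile 0 members were higher and 13 lower, and 16.1% of all genes were called. In the main fit 3 members were higher and 9 lower at 24 h. Beside the genes named above these were Gins2 (-0.35), Cdc6 (-0.36), Kif20a (-0.34), Birc5 (-0.31), a component of the complex of Aurkb, Mcm5 (-0.25) and Bub1b (-0.24) on the lower side, and Ccne1 (0.40), Cdc20 (0.39) and Pcna (0.24) on the higher side. The calls of Ccnd2 and Ccnd3 alone were kept in all alternative limma fits, and Bub1b kept its call in 9 of 26 and Pcna in 14 of 26. The call of Bub1b was lost without any 1 DMSO or WS1442 array other than WS1442 24 h replicate 1, and that of Pcna without any 1 of them other than DMSO 6 h replicate 1, WS1442 6 h replicate 3 and WS1442 24 h replicate 2. For MeOH eluate 5 members differed, 10.4% against 7.79% of all genes (3.94% higher and 3.85% lower) and 15.4% of the brighter genes (7.03% higher and 8.41% lower). They were Ccnd2, Cdt1, Ccnd1, Ccne1 (0.29, adjusted p = 0.0332) and Plk1 (0.23, adjusted p = 0.0476), and the call for Ccnd2 alone was kept in all alternative limma fits. Both sets of differences share the DMSO arrays. At 2-fold and an unadjusted p-value under 0.05, 0 members passed for either difference of effects (2.01% and 3.34% of all genes).

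In the DMSO cultures themselves 35 of 48 members had a higher signal at 24 h than at 6 h, with a median difference of 0.17 against -0.02 over all genes. Cdkn1b (0.77) and Ccnd2 (0.72) had the largest positive differences, and Ccne1 (-0.55), Foxm1 (-0.31) and Ccnd1 (-0.30) the largest negative ones. As time point and slide coincide, these cannot be told apart, and no test was made.

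Markers of cell types were compared over the same groups. All 7 markers of pluripotent cells and all 8 of mesoderm were well above background on all 16 arrays, as were 8 of 9 cardiac, 3 of 5 neuroectoderm, 4 of 6 endoderm and 4 of 6 blood and endothelium markers, and Myh6, which drives the reporter of the line, was not among the genes tested. A summed signal follows the brightest genes of its list, so it does not stand for each of them. The summed log2 signal of the mesoderm markers was 11.97 to 11.99 with DMSO, 11.52 to 11.67 with WS1442 and 11.02 to 11.10 with MeOH eluate at 6 h, and 11.79, 11.50 to 11.57 and 11.19 to 11.32 at 24 h. With MeOH eluate at 6 h the mean of the mesoderm marker Mixl1 was 8.53, against 10.92 with DMSO, but those of Mesp1 (7.97 against 7.83), Kdr (8.94 against 8.86) and Tbx6 (6.28 against 6.00) were not lower. In limma 2 of the 8 mesoderm markers were called lower with WS1442 and 4 with MeOH eluate at each time, and 0 were called higher. The summed signal of the endoderm markers was 10.92 to 10.95, 10.52 to 10.66 and 10.08 to 10.31 at 6 h and 11.27 to 11.36, 11.12 to 11.30 and 10.43 to 10.72 at 24 h. For the markers of pluripotent cells it was 13.87 to 13.97, 13.88 to 13.93 and 13.80 to 13.88 at 6 h and 13.15 to 13.19, 13.13 to 13.23 and 13.09 to 13.33 at 24 h. This sum is mostly that of Pou5f1, whose mean was 13.71 in all 3 groups at 6 h. With MeOH eluate at 6 h the mean of Nanog was 5.34 against 6.29 with DMSO, that of Tdgf1 8.59 against 9.76 and that of Sox2 7.48 against 7.92. Of the 7 markers, 1, 2, 2 and 1 were called lower in the 4 comparisons with DMSO and 0, 0, 0 and 1 higher. The cardiac markers, at 9.98 to 10.04, 9.90 to 10.05 and 10.08 to 10.20 at 6 h, were at 10.55 to 10.58, 10.31 to 10.48 and 9.84 to 10.02 at 24 h, and the blood and endothelium markers, at 8.88 to 9.15, 8.81 to 9.15 and 9.13 to 9.19 at 6 h, were at 9.28 to 9.30, 8.68 to 8.84 and 8.62 to 8.83 at 24 h. With WS1442 at 24 h the mean of Gata4 was 8.68 against 9.39 with DMSO, and Nkx2-5, Hand2 and Tnnt2 were lower too. Those of Mef2c (6.88 against 6.40), Isl1 (7.77 against 7.43), Hand1 (8.19 against 7.97) and Actn2 (6.66 against 6.29) were higher. At 24 h, 1 cardiac marker was called higher and 3 lower with WS1442, and 0 and 4 with MeOH eluate. For endoderm these counts were 1 and 1 and 0 and 2, and for blood and endothelium 0 and 1 and 1 and 2. The neuroectoderm markers were at 12.49 to 12.59, 12.45 to 12.56 and 12.37 to 12.52 at 6 h and at 12.02 to 12.04, 11.93 to 12.02 and 12.06 to 12.27 at 24 h. Mesoderm and endoderm sums were lower on every MeOH eluate array than with DMSO at both times, and with WS1442 too except for the endoderm sum at 24 h, where the ranges overlapped. The part of these cell types in the changes of the members was not tested.

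Calls depended on the few DMSO arrays and on the processing. The losses named above for single genes are mostly those from leaving out an array. With replicate number as a block, 3, 3, 5 and 2 of the calls in the 4 comparisons with DMSO were lost. Under scaling to the 75th percentile 1, 1, 6 and 0 were lost. All alternative limma fits kept the call of 0 of 3 members for WS1442 at 6 h, of 3 of 12 for MeOH eluate at 6 h (Mcm7, Ccnd1 and Plk1), of 6 of 21 for WS1442 at 24 h (Mcm5, Gins2, Ccne1, Cdk2, Cdc20 and Plk1) and of 9 of 14 for MeOH eluate at 24 h (Mcm7, Cdc6, Cdc45, Cdt1, Ccne1, Ccnd1, Ccnd2, Cdc25a and Bub1b). Without DMSO 6 h replicate 1 or 2, 7 and 4 members were called for MeOH eluate at 6 h and 0 and 1 for WS1442, for which 5 were called when WS1442 6 h replicate 1 was left out and 1 when WS1442 6 h replicate 3 was. Without DMSO 24 h replicate 1, WS1442 at 24 h gave 11 called members and MeOH eluate at 24 h gave 9.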

How the data were processed

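Total RNA of 16 cultures was hybridised to 1-colour Agilent arrays. The authors deposited scanner output with the processed intensity that Agilent's software gives each spot, and a table of linear intensity after quantile normalization. There were 61473 gene spots among 62912 spots per array. From the processed intensity, non-uniform spots were set to missing, the log2 scale was taken and all 16 arrays were brought to 1 distribution by quantile normalization, which the methods name, 36729 probes passed a filter that asked for a signal well above background throughout 1 or more groups, and the brightest kept probe stood for a gene (29298 genes). Genes were named through RefSeq accessions and symbols, with file names kept elsewhere. limma 3.58.1 (R 4.3.3, moderated with a trend) fitted 6 group means, and p-values were adjusted by Benjamini-Hochberg over all genes. Scripts were tested on simulated data. The number of arrays limits the precision.

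The members and gene lists were chosen with earlier results of these data known. Values on each array are given for members called in any comparison with DMSO, up to the 10 of smallest adjusted p-value in each role, and always for Mki67, Pcna, Ccnd1, Ccnd2, Ccnd3, Ccne1, Cdk1, Ccnb1, Cdkn1b and Cdkn2c. Of each wider list the 2 genes of smallest adjusted p-value in a comparison are named. Alternatives were scaling to the 75th percentile, the deposited table, normexp correction, other filters on dim probes, the mean over probes, limma without trend, array weights, only the arrays of a time point, replicate number or slide row as a block, leaving out each array, and the methods' t-test. Levels at 6 h and 24 h were not tested against each other because each time point lay on its own slide. Promoter stretches come from RefSeq tables.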

Additional observations from a re-analysis of the deposited data

Results flagged for a closer look

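For 14 members the effect of a treatment at 24 h differed from its effect at 6 h by the interaction term of limma (adjusted p under 0.05). With WS1442 the difference of effects, 24 h minus 6 h on the log2 scale, was -0.25 for Mcm5, 0.24 for Pcna, -0.36 for Cdc6, -0.31 for Cdt1, -0.35 for Gins2 and 0.40 for Ccne1. It was -0.48 for Ccnd2, -0.31 for Ccnd3, 0.39 for Cdc20, -0.24 for Bub1b, -0.31 for Birc5 and -0.34 for Kif20a. With MeOH eluate it was -0.31 for Cdt1, 0.29 for Ccne1, 0.44 for Ccnd1, -0.82 for Ccnd2 and 0.23 for Plk1. Each effect was taken within its slide, and both treatments share the DMSO arrays of a time point.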

How the results depend on the processing

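The counts of members called by limma were 3, 12, 21 and 14 for WS1442 and MeOH eluate against DMSO at 6 h and then at 24 h, 14 and 15 between the treatments at 6 h and 24 h, and 12 and 5 for the difference of effects with WS1442 and MeOH eluate. With the methods' t-test and Benjamini-Hochberg adjustment the first 6 became 0, 0, 0, 2, 1 and 0. With only the arrays of the time point, WS1442 at 6 h gave 0, MeOH eluate at 6 h gave 7 and the treatments at 6 h gave 6. Without a trend in limma, WS1442 at 6 h gave 1, the treatments at 6 h gave 8, and the differences of effects gave 7 for WS1442 and 2 for MeOH eluate. Scaling to the 75th percentile gave 28 between the treatments at 6 h, 9 at 24 h and 2 for the difference of effects with MeOH eluate, which was 3 with normexp correction, 2 with no filter on dim probes and 3 with array weights. Other alternatives that kept all arrays and had no replicate block gave counts within 1.5 times those named.

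The labels number the replicates alike in each group and do not say whether same-numbered samples were paired. Deviations of same-numbered samples correlated between -0.23 and 0.31. With so few arrays in a group, these correlations cannot decide whether the samples were paired. With the replicate block the counts were 0, 9, 16, 12, 11 and 13 in the first 6 comparisons and 7 and 2 for the differences of effects.

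Leaving out each array in turn gave 0 to 5 for WS1442 at 6 h, 4 to 13 for MeOH eluate at 6 h, 11 to 23 for WS1442 at 24 h, 9 to 15 for MeOH eluate at 24 h, 7 to 17 and 9 to 16 between the treatments at 6 h and 24 h, and 5 to 14 and 2 to 4 for the differences of effects. Between the treatments, 8, 8 and 7 remained without WS1442 6 h replicate 2, WS1442 6 h replicate 3 and MeOH eluate 6 h replicate 1, and 9 at 24 h without WS1442 24 h replicate 3. The shares of all genes called fell in these fits too, to 6.88%, 4.84% and 4.97% at 6 h and 6.92% at 24 h. The difference of effects with WS1442 gave 6 without DMSO 6 h replicate 1 and 5 without DMSO 24 h replicate 1. The lone DMSO array is assumed to vary like the other groups.

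Over 96 single results, 2195 values under an alternative kept their direction and side of the threshold, 455 kept their direction only and 4 reversed. These were Mcm6 with WS1442 at 24 h after 75th percentile scaling (-0.0551) and, with the mean over probes, Top2a (-0.11) and Mad2l1 (-0.0021) with WS1442 at 24 h and Top2a between the treatments at 24 h (0.0769). The cause was not tested. Cdkn2c, near background on 2 of 16 arrays, is limited by its signal.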
